A study of Mus musculus with 9 samples.

Results

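Described here are 36 genes of glycolysis and of the response to low oxygen in 4T1, an established line from a mouse mammary carcinoma. They were picked by name from textbook membership of these pathways, with earlier results of these data known. They are 36 of the 52306 gene names in the deposited expression table. Total RNA taken at day 2 was sequenced in 9 libraries. Of these, 3 are a negative control (NC), 3 had received MK1775, also called adavosertib, which inhibits the cell cycle kinase Wee1, and 3 are labelled as treated with siRNA (small interfering RNA) directed at Wee1. All 3 groups were grown in DMEM with fetal bovine serum, and no oxygen limitation is named in the labels. The labels name proliferation inhibition as the aim of both treatments, and the study set each treated group against the same 3 NC libraries. The sources used here name no dose, vehicle or siRNA sequence, nor whether NC received a control siRNA, so that effects of vehicle or transfection cannot be told apart from those of the agents. Whether the 3 numbers of the siRNA group stand for repeats or for different siRNAs is likewise unstated. No label ties the libraries of a group to separate cultures. The p-values therefore cover the spread among these libraries, possibly a technical one.

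In glycolysis, glucose is phosphorylated by hexokinases, split by aldolase and carried through the payoff enzymes to pyruvate. Pyruvate is then reduced to lactate by lactate dehydrogenase, or enters mitochondria through pyruvate dehydrogenase, which the kinase Pdk1 switches off. Many of these genes are targets of hypoxia-inducible factor (HIF), a dimer of an oxygen-labile alpha subunit (Hif1a or Epas1) and the stable Arnt. With oxygen present, prolyl hydroxylases (Egln1 to Egln3) mark the alpha subunit for destruction through the Vhl ligase. The genes of Egln1 and Egln3 are themselves HIF targets, as are Vegfa, Bnip3, Car9, Adm and Ankrd37. Tumour cells such as 4T1 commonly run glycolysis at a high rate even in oxygen. HIF binds the core sequence ACGTG or GCGTG, in either orientation.

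That core was looked for in the 250 bases before each RefSeq start (build GRCm38.p6, so these coordinates differ from the GRCm39 ones of the expression table). A match was ACGTG, which reads CACGT on the opposite strand, or the same run beginning with G instead, which reads CACGC there. CACGTG is its own reverse complement and counts as 2 overlapping matches in 1 place. Of the 36 genes 32 had an entry, and 29 of these (90.6%) held a match at 1 start or more, against 41.5% of all 27025 genes in the table. Counted by window, 37 of 46 (80.4%) held one, against 38.6% of 32851. The list holds many known targets of HIF, and these shares are given as a description. The 5 windows below are shown because they belong to 3 genes that fell with both treatments (Hk2, Egln1, Egln3), 1 that did not pass the test (Bnip3) and 1 that rose (Eno2). Each runs 5′ to 3′ on the gene's strand, with the cores in capitals, and each gene has a single start in the table.
Hk2: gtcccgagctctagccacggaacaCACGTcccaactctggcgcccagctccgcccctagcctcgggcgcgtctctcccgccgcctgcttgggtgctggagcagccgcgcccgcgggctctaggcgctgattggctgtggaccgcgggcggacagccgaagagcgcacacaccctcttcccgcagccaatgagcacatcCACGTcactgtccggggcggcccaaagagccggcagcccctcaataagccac
Egln1: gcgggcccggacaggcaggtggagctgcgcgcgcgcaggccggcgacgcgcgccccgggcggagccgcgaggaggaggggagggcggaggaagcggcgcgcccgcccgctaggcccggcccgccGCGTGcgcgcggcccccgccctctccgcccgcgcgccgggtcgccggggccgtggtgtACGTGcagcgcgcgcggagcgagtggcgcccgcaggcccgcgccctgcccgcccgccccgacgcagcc
Egln3: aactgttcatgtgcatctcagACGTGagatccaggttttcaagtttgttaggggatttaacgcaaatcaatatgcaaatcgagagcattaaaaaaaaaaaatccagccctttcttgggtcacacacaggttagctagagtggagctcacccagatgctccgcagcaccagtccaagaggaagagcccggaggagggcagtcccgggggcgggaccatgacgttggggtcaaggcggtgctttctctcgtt
Bnip3: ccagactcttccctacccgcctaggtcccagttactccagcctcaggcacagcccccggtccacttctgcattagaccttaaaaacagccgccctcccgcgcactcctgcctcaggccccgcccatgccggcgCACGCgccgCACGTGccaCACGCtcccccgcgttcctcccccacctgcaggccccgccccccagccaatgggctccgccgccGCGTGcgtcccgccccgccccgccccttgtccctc
Eno2: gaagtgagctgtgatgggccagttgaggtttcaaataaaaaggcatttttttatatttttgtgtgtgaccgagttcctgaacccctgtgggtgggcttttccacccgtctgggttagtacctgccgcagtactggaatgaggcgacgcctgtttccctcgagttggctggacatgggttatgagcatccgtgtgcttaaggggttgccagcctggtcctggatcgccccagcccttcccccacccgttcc
The Hk2 window (chr6:82774455-82774704, minus strand) holds the core at 226 and 52 bases before the start. Egln1 (chr8:124949255-124949504, minus strand) holds it at 126 and 68 bases before the start, and Egln3 (chr12:54203875-54204124, minus strand) once, 229 bases before it. Bnip3 (chr7:138909507-138909756, minus strand) has 5 matches in 4 places, the most places of any window of the 36 genes. In the Eno2 window (chr6:124769674-124769923, minus strand) these letters do not occur. A match is a run of letters, and HIF binding was not measured. Of the 13 genes that fell with MK1775, 12 held a match, a share near the 90.6% of all 32 genes with an entry. Ndrg1, Bnip3l, Epas1 and Slc2a3 had no entry.

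Expression is in FPKM, a fragment count divided by transcript length and by library depth, and was added up over the named transcripts of a gene. FPKM summed to 321551 to 332950 per library, and 10017 to 10783 named genes reached 1 FPKM. The depth behind these values is unknown, so no counting interval is given. The targeted gene Wee1 (chromosome 7, 109721253 to 109742700, plus strand) was not lowered: it was at 11.5, 10.5 and 11 FPKM in NC, 15, 14.7 and 16.8 with MK1775, and 13.1, 15.1 and 15.3 in the third group. In limma's test (below) Wee1 was higher than in NC, by 0.46 with MK1775 (adjusted p = 0.00226) and 0.37 in the third group (adjusted p = 0.00633). An assembled transcript without a gene name and the gene Gm45819 also lie at this locus, and are not counted in these values. The lack of a fall goes against the label of the third group. That group is named here only by its label (libraries labelled Wee1 siRNA), and each direction drawn from it rests on the label. On the leading principal component, with 53.1% of the variance, NC scored -37.8 to -33.6 and the treated libraries 15.1 to 23.4. Replicate 3 of the siRNA-labelled group and NC replicate 1 stood apart from their groups on the next component, at 23 and 13.5. The 8 epithelial markers checked summed to 434 to 497 FPKM in NC, 779 to 792 with MK1775 and 723 to 726 in the siRNA-labelled libraries. Krt8 and Krt18 made up most of that sum. Krt7 went the other way, from 24.4 ± 4.03 in NC to 13.9 ± 2.48 and 14 ± 4.04, and Epcam stayed under 1 FPKM in all 9 libraries. Sums over the marker lists were 3.35 to 6.17 for 10 immune genes and 2.3 to 3.82 for 10 genes of stroma and vessel. For 7 genes of blood they were 0.0997 to 0.192 in NC and 0.748 to 1.17 in the treated libraries, mostly Itga2b (0.042 ± 0.0407 in NC, 0.762 ± 0.0749 and 1.06 ± 0.0209). Adgre1, Cd3e, Lum and Hbb-bt were at 0 throughout. The part of these marker differences in the results below was not tested.

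In both treated groups the transcripts of most glycolytic steps were lower than in NC, while Vegfa, Ndrg1 and Eno2 were higher. The falls were mostly modest for the abundant enzymes (Ldha, lactate dehydrogenase, was 1.34-fold lower with MK1775). Over named transcripts they were larger for the regulators Pdk1 (2.75-fold), Hk2 (1.82-fold) and Egln1 (1.75-fold). With unnamed transcripts added, as described below, the abundant Pfkl fell about as far with MK1775 as these. Its difference in log2(FPKM + 1) was then -0.79, beside -0.76 for Pdk1 and -0.78 for Hk2. HIF targets did not move one way. Over its named transcripts Vegfa, the angiogenic growth factor, was 2.65-fold higher with MK1775 and 3.16-fold higher in the siRNA-labelled libraries. The HIF prolyl hydroxylases fell. The share of tested hypoxia genes that passed the test below, 41.7% in each comparison, was near that of all genes (41% and 42.8%). The summed FPKM of the 16 glycolytic enzymes on the list was 5450 ± 478 for NC, 4540 ± 81.1 for MK1775 and 4350 ± 86.5 for the libraries labelled Wee1 siRNA (SD, n = 3), with no treated library reaching the lowest NC value of 4958. In such bulk RNA, fewer cells of a type and less RNA per cell cannot be told apart.

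Of the 36 genes, 32 averaged 1 FPKM or more across the 9 libraries and were tested. With MK1775, 3 rose, 13 fell and 16 did not pass limma's test at an adjusted p under 0.05. Over all 10453 genes tested, 41% were called, 17.9% higher and 23.1% lower. The share called among the 32 was 50%. Their median difference in log2(FPKM + 1) was -0.18, beside -0.04 over all genes. In the siRNA-labelled libraries 3 rose, 16 fell and 13 did not pass, where 42.8% of all genes were called, 19.6% higher and 23.2% lower. The share among the 32 was 59.4% and the median -0.23, beside -0.012. The MK1775 and NC values did not overlap for 19 of the 32 genes, against 54% of all genes, and the siRNA-labelled and NC values for 20, against 52.2%. An exact permutation test of 3 against 3 cannot go below 0.1, so no single gene can be called by it.

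By pathway, the 20 tested genes of glycolysis, lactate transport and pyruvate use had 1 rise and 10 falls with MK1775 (median -0.21), and 1 rise and 13 falls in the siRNA-labelled libraries (median -0.33). The 12 tested genes of the hypoxia response had 2 rises and 3 falls in each comparison, with medians of -0.03 and -0.08. That is 41.7% called in each, near the 41% (MK1775) and 42.8% (siRNA-labelled) of all genes tested. For the 20 glycolysis genes the shares called were 55% and 70%. Many of these genes are abundant, and the share called over all genes was higher at a higher minimum. Of all genes averaging 5 FPKM or more, 46.9% (MK1775) and 48.8% (siRNA-labelled) were called. The 2 comparisons share their NC libraries. The same 3 genes rose and the same 13 fell in both, and Pfkl, Aldoc and Gapdh fell in the siRNA-labelled libraries alone. The test of MK1775 against the siRNA-labelled libraries called none of these 3.

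**Figure D1:**
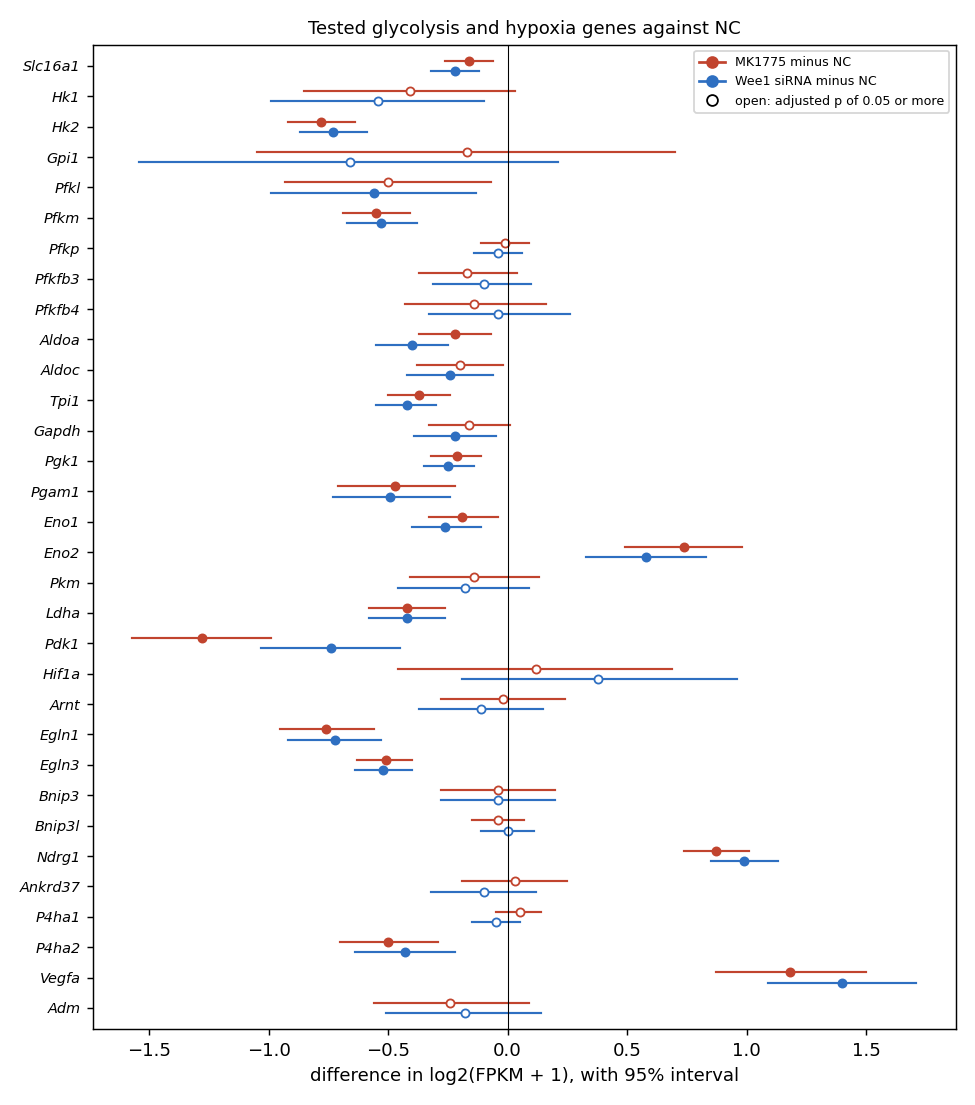
Difference in log2(FPKM + 1) from NC (x axis) for the 32 tested genes (rows, in pathway order), with 95% intervals from the limma fit. Red is MK1775, blue the libraries labelled Wee1 siRNA; filled points passed an adjusted p of 0.05. Vegfa, Ndrg1 and Eno2 lie to the right with 1.18, 0.87 and 0.74 for MK1775, and Pdk1 lies farthest left at -1.28.

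Entry of glucose and export of lactate were represented by 3 transporters. Slc16a1, the proton-coupled lactate transporter (chromosome 3, 104545984 to 104565778, plus strand), was at 62.4, 58.4 and 59.8 FPKM in NC, 52, 55.2 and 54.2 with MK1775, and 50.1, 51.4 and 53.3 in the siRNA-labelled libraries. Every treated value lay under every NC value. The MK1775 difference was -0.16 (SE 0.0443, adjusted p = 0.0215) and the siRNA-labelled one -0.22 (SE 0.0443, adjusted p = 0.00493). The MK1775 call ended without NC replicate 1 or 3 or MK1775 replicate 1 or 3, with median-of-ratios scaling and with the replicate block, with differences between -0.18 and -0.09 over all alternatives. The other two transporters were close to absent. Slc16a3, a lactate exporter that HIF is known to raise, did not exceed 0.119 FPKM in any library, and the high-affinity glucose transporter Slc2a3 was listed at 0 in NC and did not exceed 0.0658 elsewhere. Neither was tested.

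Hexokinase 2 (Hk2, chromosome 6, 82702006 to 82751435, minus strand), the inducible hexokinase of tumour cells, had one of the clearest falls. It was at 12.8, 12.7 and 13 FPKM in NC, 6.76, 6.81 and 7.54 with MK1775, and 7.31, 7.02 and 7.73 in the siRNA-labelled libraries. The 3 NC values lie close together and far above all 6 treated values. The differences were -0.78 (SE 0.0607, adjusted p = 4.36e-05) and -0.73 (SE 0.0607, adjusted p = 6.12e-05). Hexokinase 1 (Hk1), the widely expressed form, was at 15.3, 15.2 and 17.3 in NC, 11, 10.9 and 13.6 with MK1775, and 13.3, 7.36 and 12.1 in the siRNA-labelled libraries. Its groups did not overlap either, but it did not pass (-0.41, adjusted p = 0.128; -0.54, adjusted p = 0.0516). Gpi1, the phosphoglucose isomerase that follows hexokinase, varied widely between replicates, with 161, 98.9 and 82.6 FPKM in NC, 97.6, 92.1 and 102 with MK1775, and 96, 36.5 and 92.6 in the siRNA-labelled libraries. It did not pass (-0.17, adjusted p = 0.753; -0.66, adjusted p = 0.196).

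Phosphofructokinase, the committed step, has 3 isoforms, and they differed. The muscle-type Pfkm (chromosome 15, 97990470 to 98030332, plus strand) was at 12.7, 14.2 and 13.2 FPKM in NC, 8.89, 8.82 and 8.69 with MK1775, and 8.87, 8.5 and 9.51 in the siRNA-labelled libraries. It fell by 0.55 (SE 0.0613, adjusted p = 0.000256) and by 0.53 (SE 0.0613, adjusted p = 0.000307), with no overlap. The gene model Gm26513 lies at the same locus, and how far its reads enter the Pfkm values was not tested. The platelet-type Pfkp lay between 29.1 and 31.1 FPKM in all 9 libraries, with differences of -0.01 (95% interval -0.11 to 0.09) and -0.04 (-0.14 to 0.06). The liver-type Pfkl was at 77.9, 46.3 and 77.7 in NC, where replicate 2 alone lay within the treated range of 41.4 to 50. It fell in the siRNA-labelled libraries (-0.56, adjusted p = 0.0408) and did not pass with MK1775 (-0.5, adjusted p = 0.0631). The siRNA call ended when NC replicate 1, NC replicate 3 or any 1 of the siRNA-labelled libraries was left out, and with no filter, median-of-ratios scaling, only the 2 groups or the most abundant transcript. Pfkfb3 and Pfkfb4 are bifunctional enzymes that set the level of a sugar phosphate that activates phosphofructokinase. Both were at 1.41 to 2.62 FPKM and did not pass in either comparison.

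Aldolase A and triose phosphate isomerase, which make and balance the triose phosphates, both fell. Tpi1 (chromosome 6, 124787549 to 124791259, minus strand) was at 392, 459 and 427 FPKM in NC, 329, 328 and 328 with MK1775, and 325, 317 and 309 in the siRNA-labelled libraries. It fell by 0.37 (adjusted p = 0.00113) and 0.42 (adjusted p = 0.000545), and the 3 MK1775 libraries lay close together. Its most abundant transcript alone was not called in either comparison (-0.3 and -0.01). Aldoa was at 592, 692 and 593 in NC, 540, 525 and 545 with MK1775, and 478, 494 and 449 in the siRNA-labelled libraries. The 3 groups do not overlap, in descending order from NC. The MK1775 difference was -0.22 (adjusted p = 0.0299), and the siRNA-labelled one -0.4 (adjusted p = 0.00181). The MK1775 call ended without any 1 of the MK1775 libraries, with no filter, with median-of-ratios scaling and with only the 2 groups, and the most abundant Aldoa transcript alone gave 0.32 (-0.18 in the siRNA-labelled comparison, also not called). Its 2 leading transcripts divided the sum differently from library to library, the second holding 190, 41.6 and 169 FPKM in the 3 siRNA-labelled libraries. Aldoc, the brain-type aldolase, was low (2.7 to 3.94 FPKM) and fell in the siRNA-labelled libraries only by the narrow margin of -0.24 (adjusted p = 0.0387), a call that ended in 8 of 14 alternatives, among them leaving out NC replicate 1 or 2 or siRNA-labelled replicate 1 or 2.

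In the payoff phase Pgk1 and Pgam1 fell, and among the enolases Eno1 was lower and the scarce Eno2 higher. Phosphoglycerate mutase (Pgam1) was at 155, 213 and 192 FPKM in NC, 130, 129 and 142 with MK1775, and 135, 131 and 129 in the siRNA-labelled libraries (-0.47, SE 0.106, adjusted p = 0.00869; -0.49, adjusted p = 0.00686). Phosphoglycerate kinase (Pgk1), which makes the first ATP, was at 433, 482 and 458 in NC, 394, 384 and 406 with MK1775, and 390, 381 and 384 in the siRNA-labelled libraries (-0.21, adjusted p = 0.00662; -0.25, adjusted p = 0.00301). Both kept their calls under each alternative run, including those that leave out 1 library. Gapdh, often used as a reference gene, was at 694, 830 and 778 in NC, 662, 685 and 702 with MK1775, and 709, 651 and 619 in the siRNA-labelled libraries. Its groups overlapped in both comparisons, and it passed in the siRNA-labelled libraries alone (-0.22, adjusted p = 0.0457, against -0.16 and adjusted p = 0.114). That call ended in 8 of 15 alternatives (without NC replicate 2 or 3 or siRNA-labelled replicate 2 or 3, with no filter, median-of-ratios scaling, the replicate block or only the 2 groups), and the MK1775 difference was -0.23 and called without NC replicate 1.

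Eno1, the ubiquitous enolase, was at 700, 831 and 750 FPKM in NC, 640, 674 and 688 with MK1775, and 648, 643 and 613 in the siRNA-labelled libraries. It fell by 0.19 (adjusted p = 0.0483) and 0.26 (adjusted p = 0.0123). The MK1775 call ended in 10 of 15 alternatives: without NC replicate 2 or 3 or any MK1775 library, with no filter, with median-of-ratios scaling, with the replicate block, with only the 2 groups and with the most abundant transcript. Reads of Eno1 can be split with its near-identical copy Eno1b, listed at 61.8 to 233 FPKM. The sum of both was 893, 1060 and 812 in NC, 816, 827 and 873 with MK1775, and 817, 806 and 757 in the siRNA-labelled libraries, so that the groups overlap and the fall of Eno1 is uncertain. The other 14 near copies, found by a gene's name with a ps or rs ending, did not exceed 2.53 FPKM. Copies listed under other names were not looked up. Eno2, the neuronal enolase and a HIF target (chromosome 6, 124737016 to 124746636, minus strand), was low and rose. It was at 1.82, 1.75 and 1.81 in NC, 3.83, 3.3 and 3.86 with MK1775, and 3.67, 3.32 and 2.59 in the siRNA-labelled libraries. The differences were 0.74 (SE 0.107, adjusted p = 0.000978) and 0.58 (SE 0.107, adjusted p = 0.00319), or 2.04-fold and 1.78-fold in mean FPKM. With Eno1 at 613 FPKM or more and Eno2 at 3.86 or less, on this scale per length, Eno2 is a small part of the enolase transcripts.

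Pyruvate kinase (Pkm) was at 637, 901 and 869 FPKM in NC, 721, 701 and 737 with MK1775, and 673, 707 and 715 in the siRNA-labelled libraries. It did not pass (-0.14, adjusted p = 0.388; -0.18, adjusted p = 0.245), and NC replicate 1 alone lay below all treated values. Without that library the differences were -0.3 and -0.34 and both were called. Its 2 leading transcripts gave no steady split: in NC they stood at 283 and 330, 692 and 193, and 615 and 237 FPKM.

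Both genes that set the fate of pyruvate fell. Ldha (chromosome 7, 46490899 to 46505051, plus strand), which regenerates NAD+ by making lactate, had the highest FPKM of the 36 genes. It was at 1040, 1280 and 1180 in NC, 887, 858 and 865 with MK1775, and 883, 855 and 863 in the siRNA-labelled libraries. The 6 treated libraries lie within 855 to 887, well under the lowest NC value. It fell by 0.42 in both comparisons (SE 0.0687, adjusted p = 0.00181 and 0.00163). Its most abundant transcript alone was not called in either, with the 3 leading transcripts trading places between replicates. Pdk1 (chromosome 2, 71703568 to 71734202, plus strand), which inhibits pyruvate dehydrogenase, was at 12, 13.5 and 10.4 FPKM in NC, 4.09, 3.81 and 5.15 with MK1775, and 6.04, 7.44 and 6.78 in the siRNA-labelled libraries. The 3 groups were separate, with MK1775 lowest. It fell by 1.28 (SE 0.126, adjusted p = 0.000136) and by 0.74 (SE 0.126, adjusted p = 0.00203), and with its unnamed transcript counted by 0.76 and 0.83. The NC contrasts of Pdk1 were called under every alternative.

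**Figure D2:**
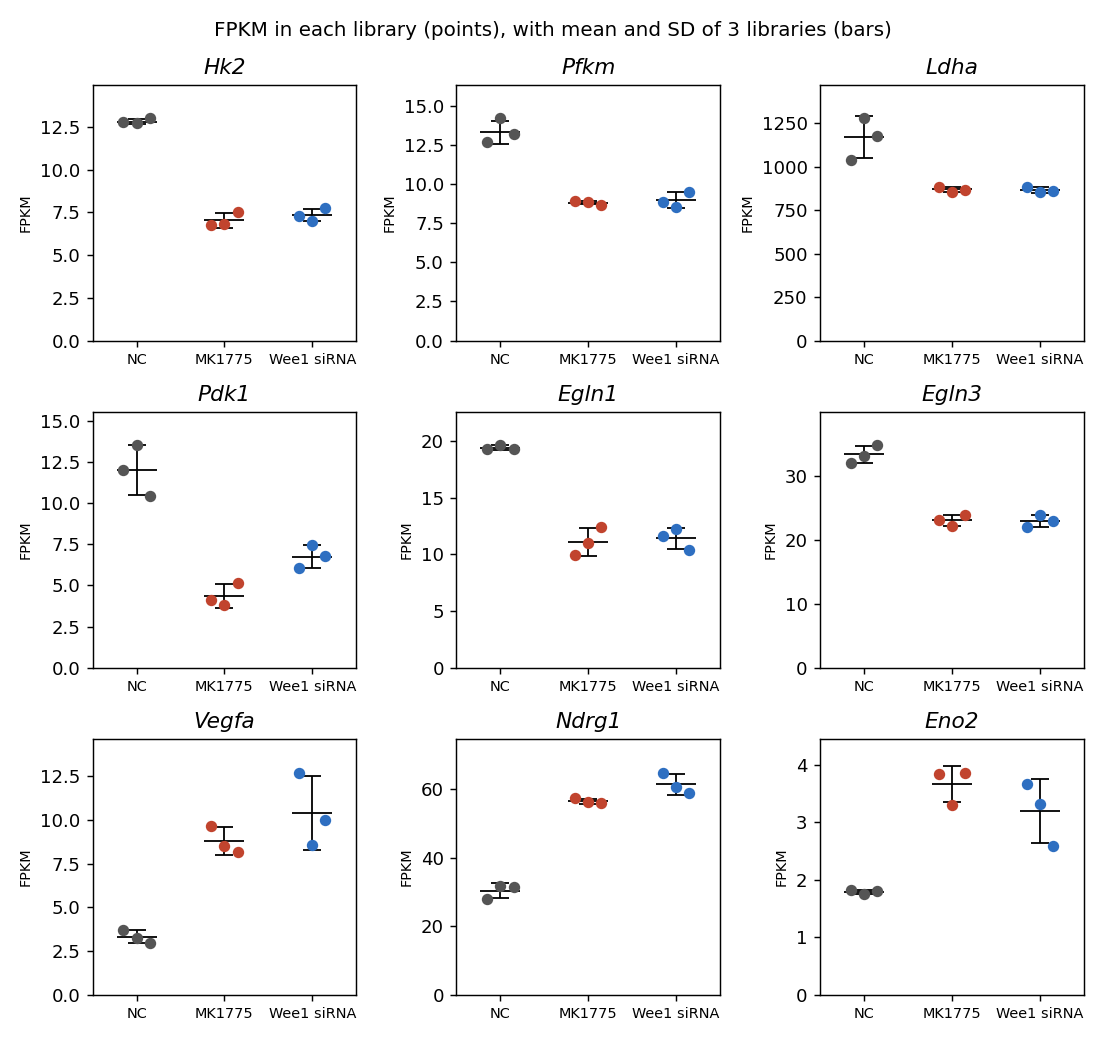
FPKM (y axis, from 0) in each library for 9 genes called in both comparisons, in NC, MK1775 and libraries labelled Wee1 siRNA; points are libraries and bars the mean and SD of 3. Treated libraries lie wholly below NC for Hk2, Pfkm, Ldha, Pdk1, Egln1 and Egln3 and wholly above it for Vegfa, Ndrg1 and Eno2.

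Among the HIF subunits neither tested gene passed. Hif1a was at 14.2, 18.7 and 10.9 FPKM in NC, 15.4, 15.3 and 15.8 with MK1775, and 16, 14.9 and 28.3 in the siRNA-labelled libraries, where replicate 3 stood alone. The differences were 0.12 (95% interval -0.46 to 0.69) and 0.38 (-0.19 to 0.96). Arnt, the constant partner, was at 4.99 to 7.33 FPKM over all libraries (-0.02 and -0.11). Epas1, the other alpha subunit, was nearly absent, at 0, 0.00641 and 0 in NC and at 0.0232 to 0.0849 in the treated libraries, and was not tested. HIF activity is set mainly through protein stability, which RNA does not show.

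The prolyl hydroxylases that sense oxygen fell together. Egln1 (chromosome 8, 125635326 to 125676063, minus strand) was at 19.3, 19.6 and 19.3 FPKM in NC, 9.93, 11 and 12.4 with MK1775, and 11.6, 12.2 and 10.4 in the siRNA-labelled libraries. Egln3 (chromosome 12, 54225767 to 54250646, minus strand) was at 32, 33.1 and 34.7 in NC, 23.1, 22.1 and 23.8 with MK1775, and 22, 23.8 and 22.9 in the siRNA-labelled libraries. For both genes every treated value lay under every NC value. Egln1 fell by 0.76 (SE 0.0848, adjusted p = 0.000256) and 0.72 (adjusted p = 0.000318), and Egln3 by 0.51 (SE 0.0515, adjusted p = 0.000146) and 0.52 (adjusted p = 0.000133). P4ha2, a collagen prolyl hydroxylase subunit, also fell, from 7.44, 9.32 and 8.33 in NC to 5.2, 5.73 and 5.95 with MK1775 and 5.83, 5.63 and 6.33 in the siRNA-labelled libraries (-0.5, adjusted p = 0.00289; -0.43, adjusted p = 0.00555). Its most abundant transcript alone was not called in either comparison (-0.36 and -0.39). Its paralog P4ha1, likewise a HIF target, lay between 21.5 and 24.5 FPKM in all libraries (0.05 and -0.05).

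The targets of the stress and secreted groups split. Ndrg1 (chromosome 15, 66801167 to 66841489, minus strand), induced by hypoxia and by other stresses and in differentiation, was at 27.9, 31.8 and 31.6 FPKM in NC, 57.4, 56.3 and 55.9 with MK1775, and 64.9, 60.7 and 59 in the siRNA-labelled libraries. It rose by 0.87 (SE 0.0605, adjusted p = 2.37e-05) and 0.99 (SE 0.0605, adjusted p = 1.28e-05), and all 6 treated values were well above NC. Vegfa (chromosome 17, 46327919 to 46343295, minus strand) was at 3.7, 3.25 and 2.97 in NC, 9.67, 8.49 and 8.17 with MK1775, and 12.7, 8.59 and 10 in the siRNA-labelled libraries. It rose by 1.18 (SE 0.136, adjusted p = 0.000294) and 1.4 (SE 0.136, adjusted p = 0.000122), the largest rises among the 32 tested genes.

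Other classical targets in the same libraries did not pass. The mitophagy receptors Bnip3 and Bnip3l lay at 8.54 to 11.1 and 35.1 to 38.7 FPKM (differences from -0.04 to 0). Ankrd37, a small ankyrin-repeat protein, lay at 2.29 to 3.13 (0.03 and -0.1). Adm, the vasodilator peptide adrenomedullin, was at 1.56, 2.33 and 1.59 in NC against 1.34 to 1.46 with MK1775 and 1.14 to 1.89 in the siRNA-labelled libraries (-0.24, adjusted p = 0.226; -0.18, adjusted p = 0.334). Car9, the membrane carbonic anhydrase often used as a marker of hypoxia, was below the minimum and not tested. It was at 0.147, 0.251 and 0.253 FPKM in NC, 0.436, 0.389 and 0.216 with MK1775, and 0.411, 0.374 and 0.294 in the siRNA-labelled libraries.

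Some of these loci carry assembled transcripts without a gene name, and for them the named sum is not the whole output. Such transcripts held 10.038% to 12.837% of the FPKM of a library. Gpi1 shows the size of the matter: its unnamed transcripts held 0.025% of the locus in NC replicate 1, up to 45.3% in the other NC libraries and 61.5% in 1 siRNA-labelled library. With them added, Gpi1 had means of 159 ± 6.81 (NC), 104 ± 3.62 (MK1775) and 98.0 ± 3.61 FPKM (siRNA-labelled; SD, n = 3), and the differences became -0.61 and -0.69, both called. Its locus also carries Gm12762, so this sum was made by an alternative that was chosen after seeing the data, in which unnamed transcripts go to the same-strand named gene they overlap most.

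The same addition steadied other enzymes. Pfkl stood at 82.9 ± 5.67, 47.5 ± 2.46 and 46.6 ± 2.3 FPKM (-0.79 and -0.82), with 48.2% unnamed in NC replicate 2, the library that had stood low. Hk1 stood at 23.6 ± 1.46, 16.6 ± 0.757 and 15.7 ± 1.63 (-0.48 and -0.56), and Pkm at 925 ± 63.3, 747 ± 20.4 and 736 ± 9.29 (-0.31 and -0.33). All of these were called. Bnip3, with 50.2% to 62.8% of its FPKM unnamed, became 24.4 ± 0.808, 21.0 ± 0.608 and 19.9 ± 1.37 (-0.21 and -0.28, called). Arnt was called lower with MK1775 (-0.19) and not in the siRNA-labelled libraries (-0.11), a difference between treatments that itself did not pass (-0.07). Hif1a became 29.0 ± 4.01, 36.5 ± 0.794 and 37.9 ± 4.66 (0.33 and 0.38, called), at a locus that also carries Snapc1 and Snapc1l. Vegfa stayed called at 1.27 and 1.36. Over all 32 genes this gave 4 rises and 20 falls in each comparison. The addition also raised the share called over 11087 genes, to 26.5% higher and 29.2% lower with MK1775 and 29.5% and 28.6% in the siRNA-labelled libraries. Limited to loci with 1 named gene, as planned, it gave 3 rises and 18 falls in each. There 25.3% of all genes were called higher and 28.8% lower with MK1775, and 28% and 28.2% in the siRNA-labelled libraries.

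**Figure D3:**
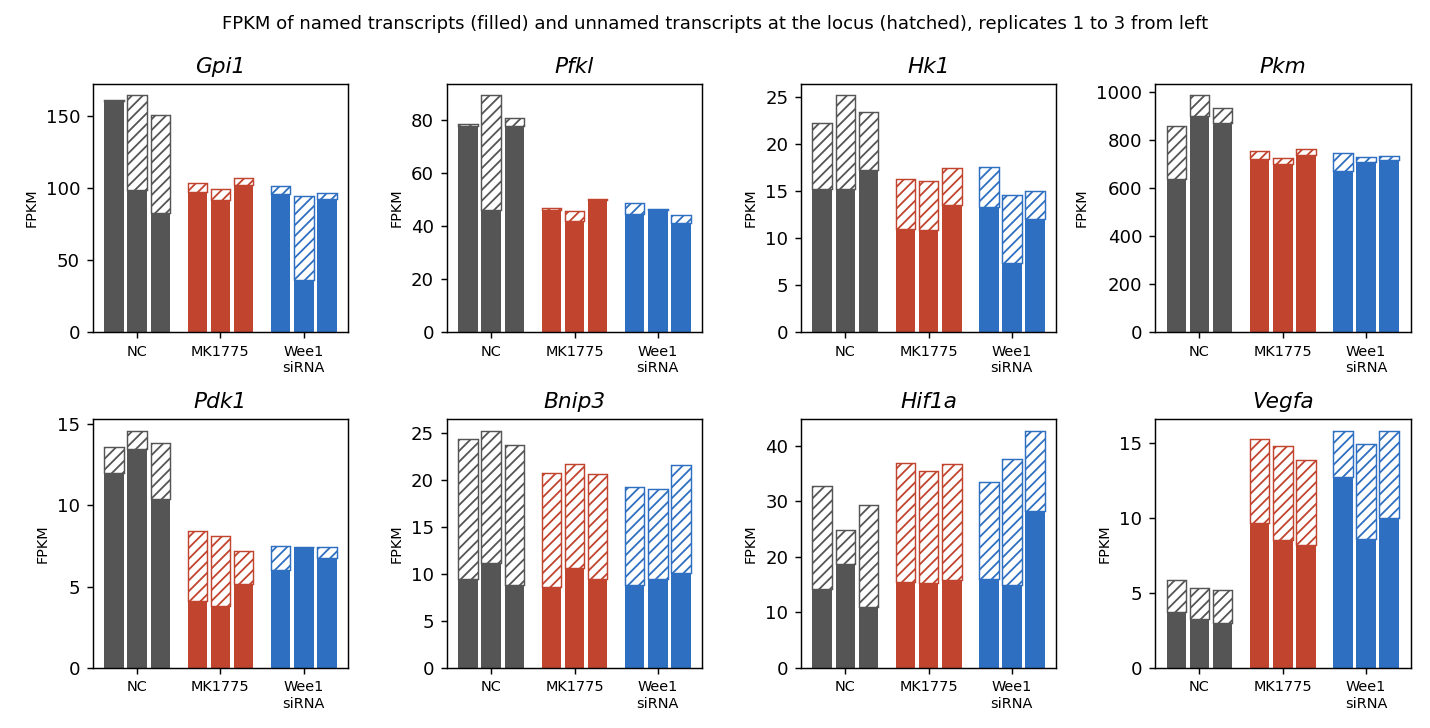
FPKM (y axis, from 0) of named transcripts (filled) and of unnamed transcripts at the locus (hatched) for 8 genes, 1 bar per library with replicates 1 to 3 from the left in each group. For Gpi1 and Pfkl the filled part varies between NC replicates while the whole bars stand at 151 to 164 and 78.6 to 89.3.

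MK1775 and the siRNA-labelled libraries were then compared directly, as both are meant to act on Wee1. Over all genes this contrast called 1 of 10453 (0.00957%), and it called none of the 32. At an unadjusted p under 0.05 there were 2 of the 32, Pdk1 and Aldoa, beside 5.89% of all genes. Of the 32 differences 28 lay within 0.2 either way on the log2 scale, and for 27 the 95% interval lay within 0.5. The lowest was Pdk1, with -0.54 (95% interval -0.83 to -0.25, adjusted p = 0.532), and with its unnamed transcript added it was 0.07. The share of the Pdk1 locus held by that transcript was 28.2% to 53.1% with MK1775 and 0% to 19.3% in the siRNA-labelled libraries. Aldoa was higher with MK1775 by 0.18 (95% interval 0.03 to 0.33, adjusted p = 0.79), and by 0.09 with its unnamed transcript added. The highest, Gpi1 at 0.49, had an interval from -0.38 to 1.36. Vegfa differed by -0.21 (-0.53 to 0.1) and Ndrg1 by -0.12 (-0.26 to 0.02). A p that misses the threshold does not show that the treated groups act alike.

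A wider list of 107 genes of the same pathways was examined beside the 36, of which 74 were tested. With MK1775 13 rose and 25 fell (51.4% called, median -0.06), beside 41% of all genes tested (17.9% higher, 23.1% lower). In the siRNA-labelled libraries 16 rose and 23 fell (52.7% called, median -0.08), beside 42.8% (19.6% and 23.2%). None was called between the treated groups. The 24 tested genes of glucose entry, pyruvate use and side branches had 5 rises and 8 falls with MK1775 (54.2% called) and 5 and 7 in the siRNA-labelled libraries (50%). The 15 tested genes of the oxygen-sensing machinery had 3 rises and 6 falls (60%), and 4 and 7 (73.3%). The 35 other HIF targets had 5 and 11, and 7 and 9, which is 45.7% called in each comparison and near the share of all genes.

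Of the metabolic genes, Slc2a1, the main glucose transporter of tumour cells, was at 27.3, 29.4 and 27.3 FPKM in NC, 18.6, 20.2 and 10.7 with MK1775, and 21.1, 20.5 and 19.4 in the siRNA-labelled libraries. It fell with MK1775 (-0.78, adjusted p = 0.0147) and did not pass in the siRNA-labelled libraries (-0.44, adjusted p = 0.108), although no treated value reached NC. In MK1775 replicate 3, 48.1% of the locus was in an unnamed transcript, and with it the treated groups stood at 19.8 ± 1.06 and 20.5 ± 0.651. The differences were then -0.48 and -0.43, and both were called. Pgm1, the phosphoglucomutase that links glycogen to glycolysis, fell from 35.5 ± 3.44 to 22.6 ± 0.558 and 21.1 ± 1.3 FPKM (SD, n = 3). Pdp1, the phosphatase that opposes Pdk1, fell from 6.82 ± 0.255 to 4.1 ± 0.194 and 3.95 ± 0.378. Among the other kinases of pyruvate dehydrogenase, looked up after the values were seen, Pdk3 fell by 0.26 and 0.28, while the low Pdk2 rose from 1.39 ± 0.222 to 1.98 ± 0.126 and 2.11 ± 0.201 (0.32, adjusted p = 0.0261; 0.38, adjusted p = 0.0121). Tkt, the transketolase of the pentose phosphate branch, fell by 0.25 and 0.33. Adpgk, an ADP-dependent glucokinase, rose from 18.2 ± 0.744 to 23.6 ± 0.168 and 21.5 ± 1.03. The most abundant transcript alone ended both calls of Adpgk (0.41 and 0.07) and the siRNA-labelled call of Pdp1 (-0.26). Pgam2, the muscle mutase, rose from 0.529 ± 0.0519 to 1.83 ± 0.236 and 1.71 ± 0.191, having passed the filter through its treated libraries. Mpc2, a subunit of the mitochondrial pyruvate carrier, was singled out after its values were seen. Its named transcripts fell from 22.7 ± 1.23 FPKM to 7.71 ± 5.04 and 6.52 ± 2.38 (-1.63, adjusted p = 0.0169; -1.71, adjusted p = 0.0133). Unnamed transcripts held 0% to 0.0347% of its locus in NC, 50.1% to 89% with MK1775 and 64.8% to 84.2% in the siRNA-labelled group. With them counted the treated means were 26.1 ± 0.666 and 25.5 ± 1.55 FPKM, and the differences turned to 0.19 and 0.16, both called. Ldhb, the lactate dehydrogenase subunit of oxidative tissue, was not tested, at 0.908 to 1.26 FPKM in NC and 0.231 to 0.67 in the treated libraries.

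In the oxygen-sensing machinery the third prolyl hydroxylase, Egln2, also fell, from 14 ± 1.08 FPKM to 10.3 ± 1.01 and 9.7 ± 0.159 (-0.41, adjusted p = 0.00422; -0.49, adjusted p = 0.00165). Limd1, a scaffold that joins prolyl hydroxylases to Vhl, fell from 16.8 ± 0.885 to 10.4 ± 0.239 and 10.6 ± 0.292. Siah2, a ubiquitin ligase that destroys prolyl hydroxylases, fell from 5.01 ± 0.114 to 3.05 ± 0.0919 and 3.07 ± 0.288. Both the destroyer and the partner of the prolyl hydroxylases were lower. Rack1, a ribosomal scaffold also tied to oxygen-independent loss of HIF, fell by 0.39 and 0.41, and Cited2, which competes for the coactivator of HIF, by 0.41 and 0.21. With the unnamed transcript at its locus, Cited2 gave -0.23 and -0.13. Its siRNA-labelled call ended without any 1 of the siRNA-labelled libraries, NC replicate 1 or NC replicate 3, with no filter, median-of-ratios scaling, only the 2 groups or the most abundant transcript. The asparagine hydroxylase Hif1an (6.56 ± 0.503, 6.22 ± 0.204 and 6.2 ± 0.183) and the ligase subunit Vhl (7.05 ± 0.875, 7.49 ± 0.0345 and 7.35 ± 0.743) did not pass.

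Among other HIF targets, Ccng2, an unconventional cyclin linked to growth arrest, rose from 3.97 ± 0.548 FPKM to 13.1 ± 1.02 and 13.3 ± 0.683 (1.5 and 1.53). It responds to signals other than HIF as well. Ak4, a mitochondrial adenylate kinase, fell from 10.7 ± 0.61 to 5.48 ± 0.244 and 5.8 ± 0.0334 (-0.85 and -0.78), and Fam162a, a mitochondrial protein induced in hypoxia, from 77.3 ± 2.73 to 49.3 ± 2.2 and 46.9 ± 2.53 (-0.64 and -0.71). The most abundant transcript alone ended both calls of Ak4. As among the 36, targets of HIF lay on both sides of NC, with a share called near that of all genes.

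**Figure D4:**
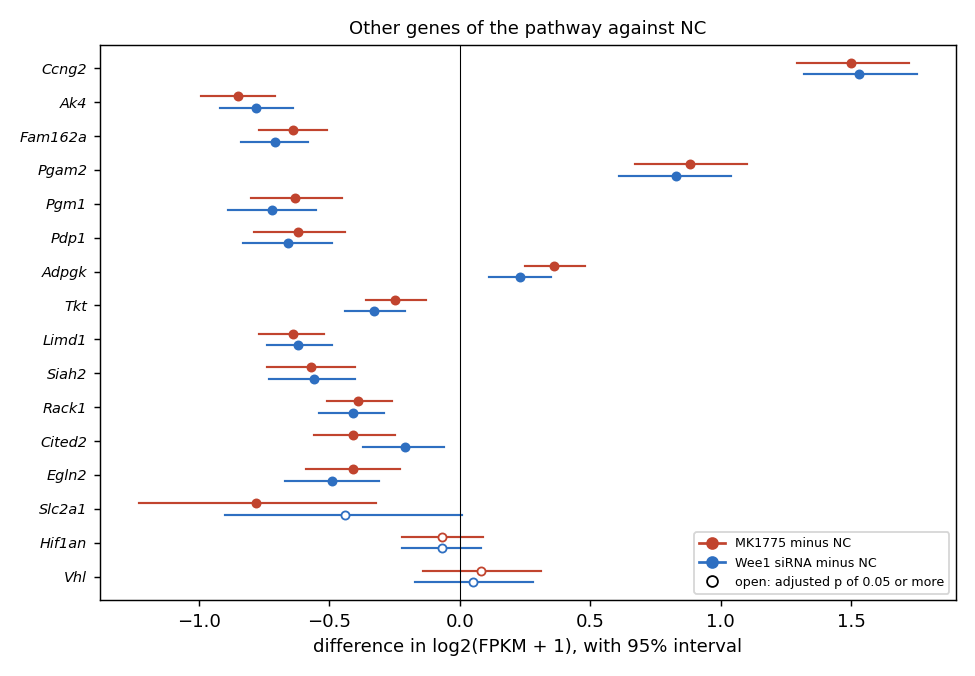
Difference in log2(FPKM + 1) from NC (x axis) for 16 other genes of the pathways (rows), with 95% intervals from the limma fit. Red is MK1775, blue the libraries labelled Wee1 siRNA; filled points passed an adjusted p of 0.05. Ccng2 lies to the right at 1.5 for MK1775, and Ak4 to the left at -0.85.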

How the data were processed

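Per the submitters' processing notes, FastQC, Trim Galore, HISAT2 and StringTie were used with the build GRCm39, with no version or order given here. The authors deposited FPKM, 1 value per transcript and library, for 158719 transcripts, of which 17991 have no gene name. No counts were used: the best step put 25.6% to 39.8% of low values within 0.1 of a whole multiple, so reads could not be recovered and depth is unknown. FPKM were summed over named transcripts of each gene. 19 names on more than 1 chromosome were left out. Whether counting used strand is unstated.

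Genes averaging 1 FPKM or more (10453) were tested on log2(FPKM + 1), a scale that understates changes of low genes. The test was limma 3.58.1 in R 4.3.3 (lmFit, contrasts.fit, eBayes with trend), with 9 libraries in 1 fit, no covariate, and Benjamini-Hochberg adjustment over all genes (threshold 0.05, two-sided). The script was tested on simulated data. Positions are on GRCm39 as deposited, except promoters, which are RefSeq's on GRCm38.p6.

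Members, lists and rules were chosen with earlier results of these data known. All 36 members are accounted for. Of the other lists, up to 4 called genes with the smallest adjusted p in each NC comparison are named, plus Slc2a1, Ldhb, Hif1an and Vhl. Some genes that these rules name are not reported here. Mpc2, Pdk2, Pdk3 and the near copies were added once their values were known. Alternatives were a pseudocount of 0.1, no filter, a minimum of 5 FPKM, median-of-ratios scaling, the replicate number as a block, only the 2 groups compared, the most abundant transcript, unnamed transcripts added, and each library left out.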

Additional observations from a re-analysis of the deposited data

How the results depend on the processing

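Members lower with MK1775 numbered 13, against 8 with the most abundant transcript and 20 with unnamed transcripts added at several-gene loci too. Over all genes tested the shares called lower moved as well, at 23.1%, 18.6% and 29.2%. Leaving out each library gave 10 to 14 members lower with MK1775 and 13 to 15 in the siRNA-labelled comparison (16 with all libraries). Of all genes, 18.9% to 21.7% and 19.2% to 22.2% were then called lower. Libraries of different groups with the same replicate number had correlations of -0.12 to 0.043, and those with different numbers -0.155 to 0.182. These values gave no sign of pairing by number, and 3 libraries per group cannot exclude it. With the replicate numbers as a block, 11 and 15 members fell and 3 rose in each comparison. Of all genes 20.9% and 21.1% were then called lower, and 16.2% and 17.9% higher.

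Some differences changed sign, and the cause was not tested. Of these, the MK1775 fall of Aldoa and both falls of Mpc2 had been called. With the most abundant transcript alone, the MK1775 differences were 0.32 for Aldoa, 0.32 for Arnt, 0.03 for Bnip3, -0.06 for Hif1a and -0.14 for P4ha1, and the siRNA-labelled ones 0.06 for Arnt, 0.01 for Bnip3 and 0 for Bnip3l. Median-of-ratios scaling gave 0.04 for Arnt, 0.02 for Bnip3, 0.02 for Bnip3l and 0.06 for Pfkp with MK1775, and 0 for Bnip3 and 0.01 for Pfkp in the siRNA-labelled comparison. With unnamed transcripts added, Mpc2 gave 0.19 and 0.16, and Pdk1 gave 0.07 between the treated groups. Leaving out each library gave, with MK1775, -0.07 to 0.1 for Ankrd37, -0.1 to 0.06 for Arnt, -0.11 to 0.05 for Bnip3, -0.37 to 0.1 for Gpi1, -0.07 to 0.3 for Hif1a, -0.03 to 0.01 for Pfkp and -0.01 to 0.15 for Vhl. For the siRNA-labelled libraries it gave -0.11 to 0.04 for Bnip3, -0.02 to 0.03 for Bnip3l, -0.13 to 0.08 for Pfkfb4 and -0.03 to 0.12 for Vhl. Depth is unknown, so counting error was not estimated.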
